A study of Rattus norvegicus with 40 samples.

Results

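The subunits of the AMPA and NMDA receptors were followed in rat cerebral cortex by taking every probe set (a set of short oligonucleotide probes read as 1 value) that the platform annotation assigned to a single gene among Gria1, Gria2, Gria3, Gria4, Grin1, Grin2a, Grin2b, Grin2c, Grin2d and Grin3a. These 10 genes, of 14217 that a probe set named singly, had 19 probe sets among 31042, 8 for the 4 AMPA receptor genes and 11 for the 6 NMDA receptor genes. Total RNA from cerebral cortex was hybridised to 40 Affymetrix 1-colour arrays, 20 from rats labelled as given hypoxic preconditioning and 20 from rats labelled as sham and kept in normal oxygen. The samples of each group are numbered 1 to 20 and fall into 4 number runs by the order of listing (1-5, 6-10, 11-15 and 16-20), each with 5 arrays per group. The labels do not say what the runs are. No source used here gives the oxygen level, how long it was held, or the rats' strain or age. Whether each sample was a different rat is not stated either, and the p-values therefore measure the spread among these arrays, part or all of which may be technical.

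AMPA and NMDA receptors are tetrameric ion channels opened by glutamate, the main excitatory transmitter of the cortex. AMPA receptors, built from the products of Gria1 to Gria4, carry most of the fast current, and the subunit encoded by Gria2, after editing of its RNA, keeps the channel nearly impermeable to calcium. NMDA receptors need the obligatory subunit encoded by Grin1 together with subunits from Grin2a to Grin2d or Grin3a, admit calcium, and are blocked by magnesium until the membrane is depolarised. In the maturing rodent cortex, receptors rich in the Grin2b product are known to be joined by receptors with the Grin2a product, while Grin2d and Grin3a are known as subunits of early postnatal tissue. Loss of oxygen makes glutamate accumulate outside cells, and overactivation of these receptors is a textbook route of ischaemic injury.

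After preconditioning, 1 of the 2 probe sets of Gria2 and the only probe set of Grin3a were higher, by 1.15-fold each over all arrays. The other Gria2 probe set, of similar brightness, was not called. The gap between both Gria2 probe sets differed between the groups, in a fit chosen after seeing the data that shares the called values. No other AMPA or NMDA receptor probe set passed in any preconditioning comparison of the main fits, which did not pair the arrays by sample number. With sample number as a replicate block, so that same-numbered arrays were compared, 1 probe set of Gria4 in numbers 1-5 and 1 of Grin1 in numbers 6-10 were called too. Between runs of sham arrays, 1 probe set each of Grin1, Gria4 and Grin2d differed, a share of the 18 close to that of all probe sets. Of these, the Grin1 probe set and 1 of the 3 Gria4 probe sets were higher in numbers 16-20 than in numbers 1-5, by 1.33-fold and 1.39-fold. The balances between subunits, such as Grin2a against Grin2b, differed between sham runs by up to 0.69 on the log2 scale. None passed the adjusted test, which a single fully separated balance could not have passed alone.

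Of the 10 genes, 5 (Gria4, Grin1, Grin2c, Grin2d and Grin3a) matched an entry in the RefSeq promoter table of assembly GRCr8 by symbol. Gria2 had no entry. The 250 bases before the annotated start are shown for 4 of the 5 genes, those with a called difference. In the main fits only Grin3a was called after preconditioning, and Grin1, Gria4 and Grin2d were called only between sham runs. A sequence core bound by oxygen-regulated factors was looked for because the treatment in the series was low oxygen. All 4 genes lie on the minus strand, and the windows are chr5:69001559-69001808 for Grin3a, chr3:28528755-28529004 for Grin1, chr8:10319882-10320131 for Gria4 and chr1:105481237-105481486 for Grin2d. Capitals mark every ACGTG or GCGTG on either strand, the core that hypoxia-inducible factors are known to bind.
Grin3a: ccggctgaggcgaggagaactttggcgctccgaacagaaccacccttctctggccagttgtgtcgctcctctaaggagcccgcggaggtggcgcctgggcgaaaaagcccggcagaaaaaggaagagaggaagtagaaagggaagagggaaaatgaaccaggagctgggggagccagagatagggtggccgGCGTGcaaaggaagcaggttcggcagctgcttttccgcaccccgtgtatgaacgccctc
Grin1: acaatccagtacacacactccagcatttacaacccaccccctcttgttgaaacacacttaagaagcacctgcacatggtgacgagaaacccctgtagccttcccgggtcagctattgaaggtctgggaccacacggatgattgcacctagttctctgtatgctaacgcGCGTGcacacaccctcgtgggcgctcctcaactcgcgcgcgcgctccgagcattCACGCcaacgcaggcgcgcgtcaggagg
Gria4: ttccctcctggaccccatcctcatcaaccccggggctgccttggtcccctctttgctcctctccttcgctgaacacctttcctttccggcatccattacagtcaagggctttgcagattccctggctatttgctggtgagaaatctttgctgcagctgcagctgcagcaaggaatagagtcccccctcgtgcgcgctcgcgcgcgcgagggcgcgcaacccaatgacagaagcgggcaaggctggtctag
Grin2d: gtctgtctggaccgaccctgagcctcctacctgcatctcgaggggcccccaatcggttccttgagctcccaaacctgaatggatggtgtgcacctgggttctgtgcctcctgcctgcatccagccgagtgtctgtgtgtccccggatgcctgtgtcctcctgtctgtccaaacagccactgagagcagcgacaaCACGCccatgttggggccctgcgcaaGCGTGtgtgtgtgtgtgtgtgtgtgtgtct
The core occurred 1 time in the Grin3a window, 2 times in Grin1, 2 times in Grin2d and 0 times in Gria4 and Grin2c, and 36.7% of 33469 promoter windows of the same length held it. The GC box GGGCGG, searched on both strands, occurred in 0 of the 5 windows and in 30.5% of all. A match is only a description of these letters.

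The deposited values are linear intensities, and every difference here is on the log2 scale after values under 16 were raised to 16. Preconditioned arrays 5 and 6 stood apart from the rest, with array medians of 5.59 and 5.53 (log2 intensity) against at least 5.71 on the others. Probe sets were tested with limma where their mean reached the 40th percentile, an intensity of 31.9, which kept 18625 probe sets and 18 of the 19 here. The one left out, Grin2d probe set 1368950_a_at, lay at the floor of 16 on 13 arrays. All 10 measured markers of cortical excitatory neurons were kept (Nrgn at a mean intensity of 2090, Neurod6 at 1494), as were 9 of 10 interneuron markers on the array (Gad1 at 1207, Sst at 821). The exception was Pvalb, of fast-spiking interneurons, at the floor on 36 arrays. Of 8 markers of cerebellar granule cells, several of which other neurons also express, 5 were kept (Neurod1 at 459) and 3 were not, with En2 at the floor on all 40 arrays. Probe sets differ in their affinity for RNA, so no probe set's level is read against another's.

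Gria2 encodes the subunit that sets calcium permeability, and its probe set 1368401_at was the AMPA receptor probe set with a called difference after preconditioning in the main fits. In numbers 1-5 the preconditioned arrays read 10.67, 10.73, 10.68, 10.49 and 10.83 (log2 intensity), and the sham arrays read 10.37, 10.45, 10.38, 10.35 and 10.14. Every preconditioned array thus lay above every sham array, with a difference of 0.34 ± 0.08 (SE) and limma adjusted p = 0.0145. In numbers 6-10 the preconditioned values were 10.92, 10.50, 10.33, 10.45 and 10.49, and the sham values 10.42, 10.18, 10.23, 10.19 and 10.43, so only preconditioned array 8 overlapped the sham range. That difference was 0.25 ± 0.08 and missed the threshold (limma adjusted p = 0.0925). It passed with sample number as a replicate block. The preconditioned arrays of numbers 11-15 read 10.27, 10.41, 10.48, 10.34 and 10.29 against sham values of 10.29, 10.23, 10.35, 10.32 and 10.14. In numbers 16-20 they read 10.32, 10.70, 10.40, 10.40 and 10.57 against 10.25, 10.46, 10.41, 10.29 and 10.34. The groups overlapped in both of these runs, where the differences were 0.09 ± 0.08 and 0.13 ± 0.08.

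Over all 40 arrays, Gria2 probe set 1368401_at had a median of 10.48 (10.27 to 10.92) in the preconditioned group and of 10.33 (10.14 to 10.46) in the sham group. Of the 20 preconditioned arrays, 11 lay above every sham array, and the difference was 0.20 ± 0.05 (SE, limma adjusted p = 0.0229). More cells that express a gene and more of its RNA per cell cannot be told apart in bulk tissue. Without preconditioned arrays 5 and 6 the difference was 0.16 ± 0.04 (limma adjusted p = 0.0477) over all arrays and 0.30 ± 0.07 (limma adjusted p = 0.0154) in numbers 1-5. The call in numbers 1-5 was lost without preconditioned array 5 alone (0.30, limma adjusted p = 0.0590) and without sham array 5 (0.29, limma adjusted p = 0.0617). A moderated F-test found no difference of the Gria2 effect between runs at the threshold (adjusted p = 0.514).

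The other Gria2 probe set, 1387171_at, gave differences of the opposite sign in all 4 runs, none of them called. Its preconditioned arrays read 10.17, 10.12, 10.17, 10.18 and 10.16 in numbers 1-5, against 10.07, 10.18, 10.24, 10.27 and 10.25 on the sham arrays. The preconditioned values sat inside the sham range there. The differences were -0.04, -0.02, -0.10 and -0.06 in the 4 runs and -0.05 ± 0.03 over all arrays (limma adjusted p = 0.456). Which stretch of the transcript each probe set reads was not analysed here.

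**Figure D1:**
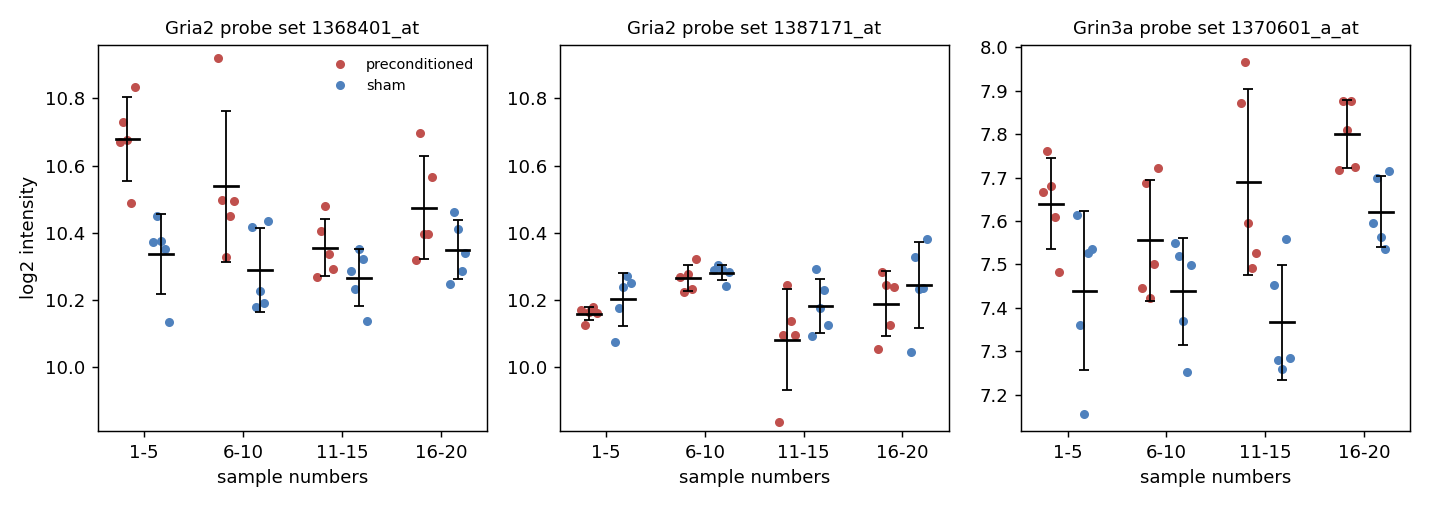
Log2 intensity (y axis) of both Gria2 probe sets and of the Grin3a probe set on every array, by run of sample numbers (x axis), with preconditioned arrays in red and sham arrays in blue, and the mean ± SD of 5 arrays in black; the Gria2 panels share a scale. In the left panel all 5 preconditioned arrays of numbers 1-5 lie above the sham arrays, in the middle panel the groups overlap in every run, and in the right panel the preconditioned mean is above the sham mean in every run.

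How far the probe sets of one gene moved apart was tested by subtracting, on each array, the dimmer from the brighter probe set. The gap between both Gria2 probe sets had a median of 0.29 (0.05 to 0.68) on the 20 preconditioned arrays and of 0.11 (-0.12 to 0.30) on the 20 sham arrays. It was above the sham median on 19 of 20 preconditioned arrays and above every sham array on 10. The gap was wider after preconditioning by 0.26 ± 0.05 (SE, limma adjusted p = 0.0193), and by 0.39, 0.27, 0.19 and 0.18 in the 4 runs. This fit, chosen after seeing the data, covered 5383 pairs of probe sets from 2926 genes, of which 0.186% were called over all arrays. Among the 10 pairs from the AMPA and NMDA receptor genes, Gria2 was the one called. Without preconditioned arrays 5 and 6 the Gria2 gap was wider by 0.22 ± 0.05 (limma adjusted p = 0.0485). Within single runs the same fit called 0% of pairs in each of numbers 1-5, 6-10, 11-15 and 16-20.

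Exact permutation tests were also run within runs. In the 40 tests of 10 pairs in 4 runs, 8 had an exact two-sided p under 0.05 and 0 an adjusted p under it. For the Gria2 gap the exact two-sided p was 0.00794, the smallest that 5 against 5 arrays allow, in numbers 1-5 and 11-15, and the adjusted value was 0.159 in both. Adjusted over 40 tests, no single gap could pass even at that smallest p, so these tests cannot decide whether gaps differed within runs. The gap between the Gria3 probe sets differed by -0.26 ± 0.09 over all arrays (limma adjusted p = 0.203), with a difference below 0 in all 4 runs. This pair was called over all arrays with sample number as a replicate block. The other 8 pairs had adjusted p of at least 0.499 over all arrays.

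Gria1 encodes a subunit that is inserted into synapses during potentiation and had 1 probe set. Its 20 preconditioned arrays had a median of 7.82 (7.44 to 8.17) and its 20 sham arrays of 7.82 (7.26 to 7.99). The difference over all arrays was 0.05 ± 0.06 (limma adjusted p = 0.704), and within runs it lay between -0.09 and 0.18 with none called. Preconditioned array 4, at 7.53, was the lowest of its run, where the others read 7.94 to 8.02.

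Gria3, which forms receptors with Gria2, had 2 probe sets whose differences pointed in opposite directions. Probe set 1376892_at read 8.81, 9.23, 9.23, 9.13 and 9.23 on the preconditioned arrays of numbers 6-10, against 9.27, 9.45, 9.65, 9.25 and 9.31 on the sham arrays. All 5 preconditioned arrays lay below all sham arrays there, yet the difference of -0.26 ± 0.12 did not pass (limma adjusted p = 0.265). Over all arrays it was -0.15 ± 0.07 (limma adjusted p = 0.264), with 7 of 20 preconditioned arrays below every sham array. Probe set 1368691_at had 0.10 ± 0.05 over all arrays (limma adjusted p = 0.347) and between 0.05 and 0.16 within runs.

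Gria4, a subunit of fast-gating AMPA receptors, had 3 probe sets and no called difference after preconditioning in the main fits. In numbers 1-5 its brightest probe set, 1383707_at, read 7.32, 7.14, 7.47, 7.39 and 7.59 on preconditioned arrays against 7.06, 6.97, 7.17, 6.98 and 6.65 on sham arrays. The lowest preconditioned array lay within the sham range and the other 4 above it, and the difference of 0.41 ± 0.13 missed the threshold (limma adjusted p = 0.0736). The probe set was called there with sample number as a replicate block and with median centring. In the other runs the difference was 0.04, -0.15 and -0.10, and the F-test of the change between runs had an adjusted p of 0.268. Probe sets 1396696_at and 1369384_at gave differences over all arrays of -0.07 ± 0.08 and 0.06 ± 0.09, and within runs between -0.24 and 0.26.

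Grin1 encodes the subunit that every NMDA receptor contains, and neither of its 2 probe sets was called after preconditioning in the main fits. Probe set 1368572_a_at read 7.79, 7.53, 7.76, 7.69 and 7.42 on preconditioned arrays of numbers 6-10 and 7.32, 7.15, 7.30, 7.52 and 7.41 on sham arrays. That was its largest difference, 0.30 ± 0.11 (limma adjusted p = 0.147), with only preconditioned array 10 inside the sham range. It was called with sample number as a replicate block. The other runs gave 0.22, 0.18 and -0.11, and all arrays 0.15 ± 0.08 (limma adjusted p = 0.399). The dimmer probe set 1389900_at gave -0.06 ± 0.12 over all arrays.

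Grin2a and Grin2b encode the main partners of Grin1 in forebrain, and none of their 5 probe sets was called. The brightest Grin2a probe set, 1380861_at, differed by 0.12 ± 0.09 over all arrays (limma adjusted p = 0.546), and the dimmer 1387400_at and 1368985_at by 0.22 ± 0.11 and 0.29 ± 0.13 (limma adjusted p = 0.325 and 0.270). All 3 were above 0 over all arrays, and the largest difference within a run was that of 1368985_at in numbers 6-10, 0.59 ± 0.21 (limma adjusted p = 0.139). There its preconditioned arrays read 5.24, 5.64, 4.80, 5.06 and 5.91, and its sham arrays 5.11, 4.51, 4.73, 4.64 and 4.73. Grin2b probe set 1391708_at had 0.03 ± 0.05 over all arrays, with -0.21 ± 0.09 in numbers 11-15 (limma adjusted p = 0.441). Probe set 1369745_at had 0.10 ± 0.09 over all arrays.

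Grin2c, known best from cerebellar granule cells and astrocytes, and Grin2d, known from interneurons, had no called difference after preconditioning. Grin2c differed by 0.09 ± 0.11 and Grin2d probe set 1368951_at by 0.05 ± 0.09 over all arrays. Within runs Grin2c lay between -0.10 and 0.32, and Grin2d between -0.20 and 0.18.

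Grin3a encodes a subunit that lowers the calcium permeability and magnesium block of NMDA receptors. Its probe set 1370601_a_at was the NMDA receptor probe set called after preconditioning in the main fits. In numbers 1-5 the preconditioned arrays read 7.67, 7.76, 7.68, 7.61 and 7.48 against sham values of 7.61, 7.36, 7.16, 7.53 and 7.54. In numbers 6-10 they read 7.45, 7.69, 7.42, 7.50 and 7.72 against 7.55, 7.52, 7.37, 7.25 and 7.50. These groups overlapped, with differences of 0.20 ± 0.09 and 0.12 ± 0.09. In numbers 11-15 the preconditioned arrays read 7.87, 7.97, 7.60, 7.49 and 7.53, and the sham arrays 7.45, 7.28, 7.26, 7.56 and 7.28. In numbers 16-20 the values were 7.72, 7.88, 7.81, 7.88 and 7.72 against 7.60, 7.70, 7.56, 7.54 and 7.71, so that the highest sham value was below the lowest preconditioned value. The differences were 0.32 ± 0.09 and 0.18 ± 0.09, and neither passed within its run (limma adjusted p = 0.185 and 0.927).

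Over all arrays Grin3a had a median of 7.68 (7.42 to 7.97) after preconditioning and of 7.52 (7.16 to 7.71) in sham, and 9 of 20 preconditioned arrays lay above every sham array. The difference was 0.21 ± 0.05 (SE, limma adjusted p = 0.0338), and 0.23 ± 0.05 without preconditioned arrays 5 and 6 (limma adjusted p = 0.0193). The call was lost when no filter on low values was used (limma adjusted p = 0.0513) and in 9 of 40 fits that each left out 1 array, namely preconditioned array 2, 10 or 17 or sham array 3, 8, 9, 12, 13 or 15, with adjusted p of 0.0501 to 0.0577. The F-test of the interaction did not separate the runs (adjusted p = 0.748).

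**Figure D2:**
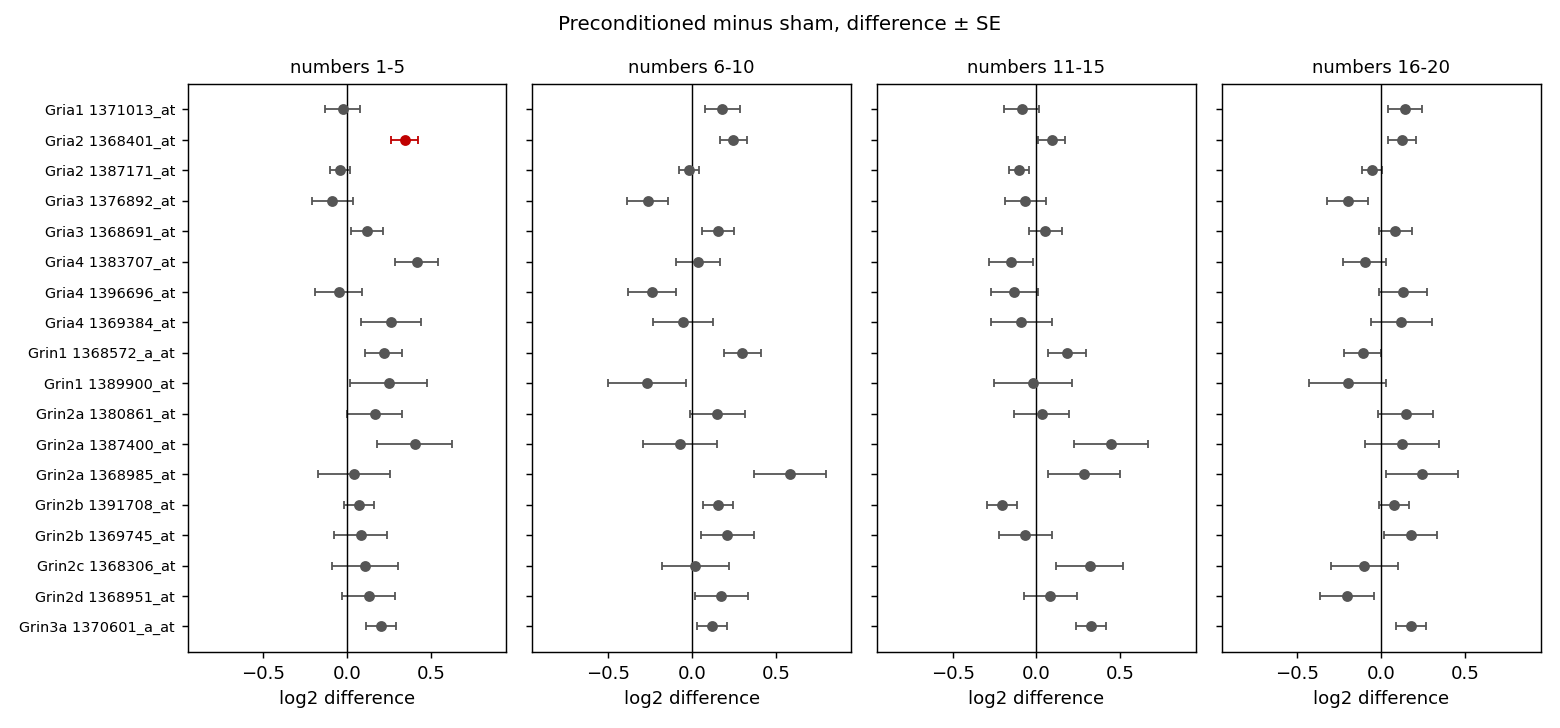
Preconditioned minus sham difference in log2 intensity (x axis) of the 18 tested probe sets (y axis) in each run of sample numbers, with the SE of the fit as bars; red marks an adjusted p under 0.05. Only Gria2 probe set 1368401_at in numbers 1-5, at 0.34, is red, and Grin3a lies right of 0 in all 4 runs.

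Counted together, 2 of the 18 probe sets were called over all arrays, both higher, where 0.891% of all 18625 were called. In numbers 1-5 it was 1 of 18 against 2.39% of all, and the median difference of the 18 was 0.12 against -0.03 over all probe sets. In numbers 6-10 it was 0 of 18 against 2.22%, with medians of 0.14 and -0.02. In numbers 11-15 it was 0 of 18 against 0.0698%, with nearly equal medians of 0.006 and 0.004. In numbers 16-20 it was 0 of 18 against 0%, with medians of 0.10 and -0.004. The interaction of preconditioning and run called 0 of 18 and 0.762% of all. At an unadjusted p under 0.05 in limma, the 18 counted 5 over all arrays (14.9% of all probe sets) and 3 in numbers 1-5 (16.6%). The counts were 4 in numbers 6-10 (16.8%), 2 in numbers 11-15 (9.85%), 0 in numbers 16-20 (5.11%) and 2 for the interaction (12.9%). Groups that did not overlap were found for Gria2 probe set 1368401_at in numbers 1-5, where 4.28% of all probe sets had such groups, for Gria3 probe set 1376892_at in numbers 6-10 (3.66%), for no member in numbers 11-15 (2.21%) and for Grin3a in numbers 16-20 (1.14%).

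The sham arrays alone show how these genes vary between number runs without preconditioning. Grin1 probe set 1368572_a_at read 7.58, 7.63, 7.62, 7.80 and 7.75 in numbers 1-5 and 7.32, 7.15, 7.30, 7.52 and 7.41 in numbers 6-10. It then read 7.87, 7.87, 7.81, 7.58 and 7.45 in numbers 11-15 and 7.99, 8.22, 8.02, 8.01 and 8.22 in numbers 16-20. The arrays of numbers 16-20 lay above all other sham arrays and those of numbers 6-10 below all of numbers 1-5. The 4 runs differed by limma's moderated F-test (adjusted p = 0.000274), and numbers 16-20 exceeded numbers 1-5 by 0.42 ± 0.11 (limma adjusted p = 0.0102). Its dimmer probe set 1389900_at had 0.53 ± 0.23 in that comparison (limma adjusted p = 0.117).

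Gria4 probe set 1383707_at read 7.06, 6.97, 7.17, 6.98 and 6.65 on the sham arrays of numbers 1-5, the arrays that also served its preconditioning comparison. It read 7.50, 7.47, 7.23, 7.49 and 7.44 in numbers 6-10, and 7.21, 7.08, 7.55, 7.42 and 6.71 in numbers 11-15. In numbers 16-20 it read 7.41, 7.70, 7.34, 7.49 and 7.27, all above every array of numbers 1-5. The runs differed (F-test, limma adjusted p = 0.0210, and 0.0726 without sham array 5), and numbers 16-20 exceeded numbers 1-5 by 0.48 ± 0.13 (limma adjusted p = 0.0103). The excess of numbers 6-10 over 1-5, 0.46 ± 0.13, also separated all arrays but missed the threshold (limma adjusted p = 0.0626). The other Gria4 probe sets differed by -0.02 and -0.04 between numbers 16-20 and 1-5, so the probe sets of this gene disagreed.

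Grin2d probe set 1368951_at read 5.57, 5.89, 5.89, 5.57 and 5.74 in sham numbers 1-5 and 5.34, 5.18, 5.24, 5.44 and 4.93 in numbers 6-10. All arrays of numbers 6-10 lay below those of numbers 1-5, yet the difference did not pass (-0.51 ± 0.16, limma adjusted p = 0.0979). Numbers 11-15 and 16-20 had means of 5.61 ± 0.22 and 5.75 ± 0.20 (SD, n = 5 each). Its F-test stood at the threshold (adjusted p = 0.0493) and was kept in 4 of 20 fits that each left out 1 sham array, with adjusted p of up to 0.165. It was also lost with a pseudocount of 32 (adjusted p = 0.0586), with no filter (0.0708) and, just past the threshold, with a floor of 1, and the probe set was too dim to be tested with the filter at the 60th percentile.

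The sham F-test thus called 3 of the 18 probe sets, against 13.7% of all. Numbers 16-20 against 1-5 called 2, both higher, against 14.8% of all, so the share was near or below that of the array as a whole. Members whose arrays did not overlap there numbered 2, against 10.5% of all probe sets. Grin2a probe set 1368985_at (0.60 ± 0.21), Grin2c (0.55 ± 0.20) and Gria3 probe set 1376892_at (0.33 ± 0.12) lay just outside the threshold, with adjusted p of 0.0512, 0.0552 and 0.0574. Without preconditioned arrays 5 and 6 in the shared fit, these 3 were called too, 5 in all. Gria1 and Grin2b probe sets 1391708_at and 1369745_at had -0.16 ± 0.10, -0.01 ± 0.09 and -0.30 ± 0.16.

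The comparisons of neighbouring sham runs called none of the 18. Numbers 6-10 against 1-5 called 1.26% of all probe sets, numbers 11-15 against 6-10 called 0.290% and numbers 16-20 against 11-15 called 0.650%. An unadjusted p under 0.05 was found for 5, 3 and 4 of the 18 in these comparisons, and for 15.1%, 8.17% and 16.2% of all probe sets. The arrays did not overlap for 3 members in numbers 6-10 against 1-5 (Gria4, Grin1 and Grin2d, against 3.98% of all), for 0 in numbers 11-15 against 6-10 (2.63%) and for Grin1 in numbers 16-20 against 11-15 (5.04%).

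**Figure D3:**
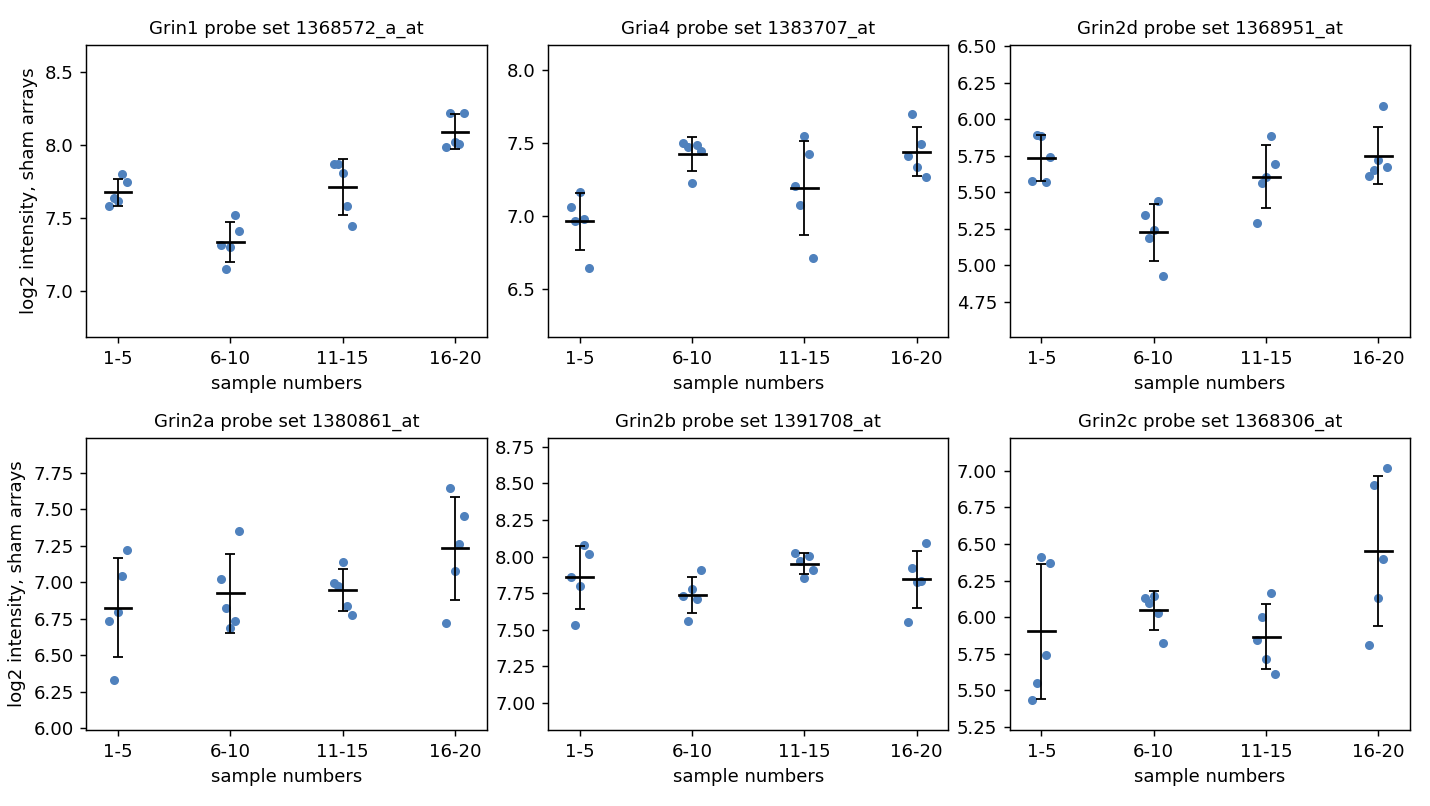
Log2 intensity (y axis) on the 20 sham arrays of 6 probe sets, by run of sample numbers (x axis), with the mean ± SD of 5 arrays in black and every panel 2 log2 units high. Grin1 is highest in numbers 16-20 and lowest in numbers 6-10, Gria4 is lowest in numbers 1-5, and Grin2b spans nearly the same range in numbers 1-5 and 16-20.

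Subunit balance was taken as the difference, on each array, between the log2 values of the brightest probe sets of 2 genes. The difference itself depends on probe affinity, so only its change between groups is read, in 28 comparisons between sham runs and 28 of preconditioned against sham arrays. Grin2a minus Grin2b, the balance known to move with cortical maturation, was -1.03 ± 0.16, -0.81 ± 0.21, -1.01 ± 0.18 and -0.61 ± 0.21 (SD, n = 5) in the 4 sham runs. Numbers 16-20 exceeded numbers 1-5 by 0.42 ± 0.12 (SE, exact two-sided permutation p = 0.0159, adjusted p = 0.0952), with 4 of 5 arrays above all of numbers 1-5. After preconditioning the balance differed by 0.09, -0.01, 0.24 and 0.07 within runs, and the smallest exact permutation p was 0.198.

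Gria4 minus Gria2 separated all arrays of sham numbers 1-5 from those of numbers 6-10 and 16-20, with shifts of 0.51 ± 0.08 and 0.46 ± 0.09. Both had an exact permutation p of 0.00794 and an adjusted p of 0.0741. Grin2c minus Grin2b shifted by 0.69 ± 0.17 between sham numbers 11-15 and 16-20, with the same exact permutation p and adjusted p. Grin3a minus Grin1 was 0.10 ± 0.24 in sham numbers 6-10 and between -0.47 and -0.24 in the other 3 runs (exact permutation p = 0.0317, adjusted p = 0.0988, for numbers 6-10 against 1-5 and for 11-15 against 6-10). Grin2d minus Grin2b shifted by at most 0.39 between sham runs (exact permutation p = 0.0952).

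After preconditioning in numbers 1-5, 2 of the 3 balances that used Gria2 probe set 1368401_at separated the groups. Every preconditioned array lay below every sham array for Gria1 minus Gria2, with a difference of -0.37 ± 0.07, and for Gria3 minus Gria2, with -0.43 ± 0.18. Both had an exact permutation p of 0.00794 and an adjusted p of 0.111. The third, Gria4 minus Gria2, differed by 0.07 ± 0.10 with overlapping arrays (exact permutation p = 0.492). Gria3 minus Gria2 also differed, with overlapping arrays, in numbers 6-10 by -0.51 ± 0.21 (exact permutation p = 0.0238, adjusted p = 0.133). In numbers 16-20 it differed by -0.32 ± 0.11 (exact permutation p = 0.0317, adjusted p = 0.148). These balances share the Gria2 values with the comparison above and are no separate evidence. Without Gria2, Grin2c minus Grin2b differed by 0.52 ± 0.15 in numbers 11-15 (exact permutation p = 0.0238, adjusted p = 0.133). Grin3a minus Grin1 differed by 0.29 ± 0.08 in numbers 16-20 (exact permutation p = 0.0159, adjusted p = 0.133). None of the 56 balance comparisons had an adjusted p under 0.05.

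**Figure D4:**
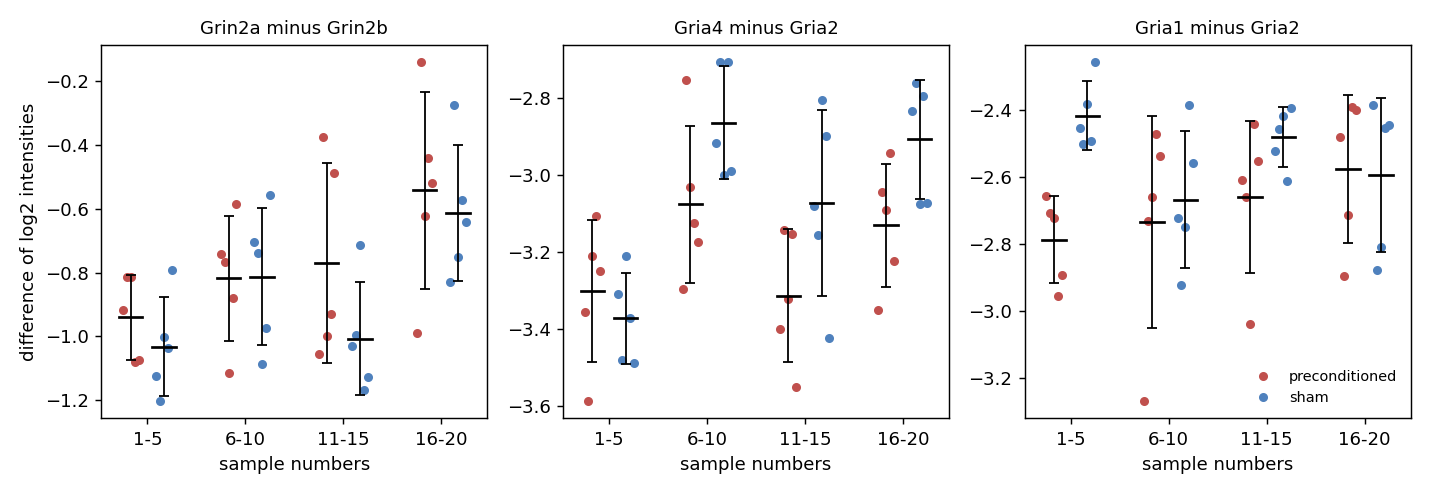
Difference of log2 intensities between the brightest probe sets of 2 genes (y axis) on every array, by run of sample numbers (x axis), with preconditioned arrays in red, sham arrays in blue and the mean ± SD of 5 arrays in black. Sham Grin2a minus Grin2b has its highest mean, -0.61, in numbers 16-20, sham Gria4 minus Gria2 is lowest in numbers 1-5, and in numbers 1-5 all preconditioned arrays lie below the sham arrays for Gria1 minus Gria2.

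Transcripts for proteins that carry, anchor or modulate these receptors were counted in 5 lists, against shares of all probe sets called of 0.891% over all arrays and 2.39% in numbers 1-5. Of 20 measured genes for auxiliary subunits and trafficking of AMPA receptors, 1 was called in numbers 1-5 and 0 over all arrays or in the other runs. It was Nptx1, a secreted pentraxin that clusters AMPA receptors, with 0.55 ± 0.12 (limma adjusted p = 0.00594). Of 26 genes for scaffolds and kinases of the postsynaptic density, 18 for NMDA receptor modulators, 4 for kainate and delta receptors and 6 for metabotropic glutamate receptors, 0 were called in any preconditioning comparison. Their medians over all arrays were 0.00, 0.05, -0.01 and 0.00, and that of the AMPA receptor auxiliary genes was 0.05, against -0.02 over all probe sets.

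Between sham numbers 16-20 and 1-5, where 14.8% of all probe sets were called, calls were made in 3 of the 5 lists. Of the 20 AMPA receptor auxiliary and trafficking genes, 6 were higher and 1, the scaffold gene Grip1, lower (-0.33 ± 0.11). The largest were Cacng3, a transmembrane regulatory protein of AMPA receptors (0.54 ± 0.12), Nptx1 (0.44 ± 0.12), Cacng8, of the same family as Cacng3 (0.40 ± 0.12), and Nsf, a trafficking ATPase (0.40 ± 0.11). Of the 26 postsynaptic density genes 6 were higher, led by Camk2a, the kinase that phosphorylates AMPA receptors in potentiation (1.02 ± 0.29), the scaffold genes Lin7b (0.63 ± 0.11) and Shank3 (0.42 ± 0.14), and the kinase gene Camk2b (0.39 ± 0.08). Of the 18 NMDA receptor modulators 5 were higher, led by the D-serine transporter gene Slc7a10 (0.68 ± 0.11), Grina (0.43 ± 0.09), the kinase gene Src (0.32 ± 0.11) and the glycine transporter gene Slc6a9 (0.32 ± 0.10). The kainate and delta receptor genes (0 of 4) and metabotropic receptor genes (0 of 6) had none called.

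Cell type markers moved in the same comparisons, and their part in the results was not tested. Over all arrays, preconditioned arrays had 1 of 10 excitatory neuron markers called higher (Emx1, 0.24 ± 0.05), 0 of 10 general neuron markers, 0 of 9 interneuron markers 2 of 10 astrocyte markers (Gfap, 0.66 ± 0.14, and Aldoc, 0.26 ± 0.07), and 1 each of 8 oligodendrocyte lineage (Pdgfra), 7 microglia and macrophage (Mrc1) and 9 endothelial and mural markers (Vwf). In numbers 1-5, where Gria2 was called, the summed level of the excitatory neuron markers lay between 12.49 and 12.77 on preconditioned arrays and between 12.47 and 12.57 on sham arrays. The summed interneuron markers did not overlap there, at 12.51 to 12.64 against 12.42 to 12.49, while every other summed marker list overlapped. No single interneuron marker was called there, and 4.28% of all probe sets had groups that did not overlap. In that run 1 of 10 excitatory neuron markers (Emx1, 0.41 ± 0.09), 4 of 9 endothelial and mural markers (Flt1, Pecam1, Vwf and Kdr), 1 of 8 oligodendrocyte lineage markers (Pdgfra) and 1 of 10 striatal, hippocampal and thalamic markers (Prox1) were called higher. Between sham numbers 16-20 and 1-5, higher calls covered 6 of 10 astrocyte markers, 5 of 7 microglia and macrophage markers, 4 of 8 oligodendrocyte markers, 5 of 10 general neuron markers, 3 of 9 interneuron markers and 4 of 10 markers of striatum, hippocampus and thalamus, and 0 of 9 endothelial, 0 of 5 cerebellar and 0 of 3 blood markers were called. Of the 10 excitatory neuron markers 2 were higher and 2 lower. These marker genes were named after their values were seen.

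The genes whose levels ran most like those of the called sham probe sets were sought over the 20 sham arrays among 10304 genes, as a description in which run and array differences are shared. For Grin1 they were, by Pearson's r, Plppr2 (0.89), Adrm1, a proteasome subunit (0.89), and Cadm3, a neuronal adhesion molecule (0.88). For Gria4 probe set 1383707_at they were Lrig1 (0.77), Iftap (0.76) and Slc35b4 (0.75), and for Grin2d Smarcc2 (0.90), the adhesion gene L1cam (0.90) and Bag6 (0.89). Spearman's rho was 0.88 to 0.92 for the genes named with Grin1, 0.73 to 0.74 with Gria4 and 0.80 to 0.83 with Grin2d. No other AMPA or NMDA receptor gene was among them.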

How the data were processed

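The authors deposited 1 linear intensity per probe set and array, and the software behind it is not given in the sources used here. Without its lowest and highest 2% of probe sets, each array's mean was 150, so arrays had been scaled alike. Intensities were floored at 16 and log2 was taken. The 57 control probe sets were left out, and 25.7% of all values were at it. The platform annotation named 1 gene for 20826 probe sets, several for 436 and none for 9780. All 19 probe sets matched a RefSeq gene ID.

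limma 3.58.1 in R 4.3.3 (lmFit, eBayes with a mean trend) fitted 2 groups over all arrays and 8 group-by-run means, with Benjamini-Hochberg adjustment over all kept probe sets at 0.05. Gaps between probe sets were fitted without the trend. Balances and gaps within runs were tested by exact two-sided permutation of 5 against 5 arrays (252 arrangements). The fits were tested on simulated data. Every probe set of the 10 genes is reported, with up to 4 called genes per pathway list and comparison and the 3 most correlated genes per probe set called between sham runs. A pathway gene was represented by its brightest kept probe set. The members, lists and tests were chosen with earlier results of these data known. The number of arrays limits the precision. Figures were drawn with matplotlib 3.10.9.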

Additional observations from a re-analysis of the deposited data

Results flagged for a closer look

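Among 144 sets of 5 arrays (18 probe sets, 4 runs, both groups), 13 held 1 array whose gap to its nearest neighbour exceeded the share of the range, 0.71, that Dixon's test allows; chance alone gives about 1 in 20. Low values on preconditioned arrays were Gria1 on array 4 (7.53, log2 intensity), Grin2a probe set 1380861_at on the same array (6.76), and Gria3 probe set 1376892_at on array 6 (8.81) and array 16 (9.16). High values on preconditioned arrays were Gria2 probe set 1368401_at on array 6 (10.92), Gria3 probe set 1376892_at on array 12 (9.73), Gria4 probe set 1396696_at on array 17 (7.28) and Grin2a probe set 1387400_at on array 16 (5.58). Low values on sham arrays were Gria3 probe set 1368691_at on array 3 (7.69), Gria4 probe set 1383707_at on array 8 (7.23), Gria4 probe set 1369384_at on array 7 (4.74) and Grin2a probe set 1387400_at on array 15, at the floor (4). The high value on a sham array was Grin2d probe set 1368951_at on array 19 (6.09). Gria2 probe set 1368401_at and Gria3 probe set 1376892_at were thus extreme in opposite directions on preconditioned array 6, one of the 2 arrays that stood apart. The other probe set of each gene was not flagged on that array.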

How the results depend on the processing

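Of 241 values of the called probe sets under other settings, 209 kept the call and 32 lost it. Among the values that are differences, 0 reversed direction. The 241 also include F-test values, which have no direction and could not reverse. Gria2 probe set 1368401_at kept its call over all arrays under all 10 other settings and 40 leave-outs, and the Gria2 gap in 40 of 40 leave-outs (adjusted p 0.00365 to 0.0333). With sample number as a replicate block, called members were 2 in numbers 1-5 (Gria2, Gria4), 2 in numbers 6-10 (Gria2, Grin1) and 2 pairs of probe sets (Gria2, Gria3); no other call changed. Same-numbered arrays correlated at 0.03 to 0.39, over 0.1 in 15 of 20 pairs. In 19 of 20 pairs the preconditioned array correlated highest, among the sham arrays of its run, with that of its own number. The numbers may thus pair the arrays, which the labels do not state, and the main fits left such pairing out. Other counts of called members were 1 over all arrays with no filter, 2 in numbers 1-5 with median centring, and, for sham numbers 16-20 against 1-5, 4 with median centring, 5 without preconditioned arrays 5 and 6 and 4 with those arrays compared alone. In that sham comparison Grin2a probe set 1368985_at was also added with quantile normalization and with no mean trend. Gria3 probe set 1376892_at was added there with the filter at the 60th percentile. For sham numbers 6-10 against 1-5 the count was 1 (Gria4) with quantile normalization, with a filter at the 60th percentile, without preconditioned arrays 5 and 6 and with the arrays compared alone, and for 16-20 against 11-15 it was 1 (Grin1) with the arrays compared alone. The causes were not tested. Leaving out 1 array gave 1 to 2 called members over all arrays, 0 to 1 in numbers 1-5, 0 to 1 in numbers 6-10 (1 without preconditioned array 8), 1 to 5 in the sham F-test (1 without sham array 5, 5 without sham array 16), 2 to 6 in sham numbers 16-20 against 1-5 (5 without sham array 5, 6 without sham array 16) and 0 to 1 in 16-20 against 11-15 (1 without sham array 16). The sham shift of Grin2a minus Grin2b stayed between 0.33 and 0.48. Median centring moved the median difference of all probe sets by at most 0.07. Dim probe sets near the floor, such as the Grin2d one left out, limit what can be seen.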
